A study of Homo sapiens with 23 samples.

Results

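The 10 genes described here are the tumour suppressor *NF2*, the Hippo kinases *LATS1* and *LATS2*, the co-activators *YAP1* and *WWTR1*, and 5 genes that YAP regulates or that act in the same pathway, *CCN1*, *CCN2*, *ANKRD1*, *AMOTL2* and *AJUBA*. They were taken as a named list of 10 genes among the 61806 of the first count table, and all 10 were also found among the 42901 of the deep table. The list was chosen by the values of *NF2* in these same libraries, which had been described as falling with both shRNAs and not with the siRNA. The *NF2* values are therefore given without a test. All 10 genes passed the filter on low counts in every comparison.

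RNA was sequenced from A549 cells, a human lung carcinoma epithelial line, after depletion of THUMPD3, a tRNA methyltransferase. The groups of the first table were siControl (n = 2) and siTHUMPD3 (siD3 #3, n = 3), sh1Control (n = 3) and shD3#1 (n = 3), and sh4Control (n = 3) and shD3#4 (n = 3). A deeper set held 3 further sh1Control and 3 further shD3#1 libraries. All were labelled biological replicates, with genotype WT for the controls and THUMPD3 knockdown for the others. The siRNA was transfected transiently, whereas the shRNAs came from a doxycycline-inducible lentiviral vector under puromycin selection and were harvested a day later than the siRNA-treated cells, so approach and time of harvest cannot be told apart. The study's methods call the shRNA controls untreated and report that doxycycline was added to induce the shRNAs. They do not state whether the controls received doxycycline. If the controls did not, exposure to the drug and knockdown cannot be told apart in the shRNA comparisons.

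In the Hippo pathway, the NF2 protein (merlin) acts at the cell cortex to promote phosphorylation of the LATS1 and LATS2 kinases. Active LATS kinases phosphorylate YAP and its paralogue TAZ, encoded by *YAP1* and *WWTR1*, which keeps them in the cytoplasm. When they are not phosphorylated, YAP and TAZ enter the nucleus, bind TEAD transcription factors and switch on genes such as *CCN1*, *CCN2* and *ANKRD1*. The pathway is largely controlled at the level of protein phosphorylation, which RNA counts do not measure.

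The *NF2* gene lies at chr22:29603556-29698598 on the plus strand of GRCh38, *LATS1* at chr6:149658153-149718105, *LATS2* at chr13:20973036-21061586, *YAP1* at chr11:102110447-102233424 and *WWTR1* at chr3:149517235-149736714. *CCN1* lies at chr1:85580761-85584589, *CCN2* at chr6:131948176-131951372, *ANKRD1* at chr10:90912096-90921087, *AMOTL2* at chr3:134355347-134375479 and *AJUBA* at chr14:22971177-22982551. Values are counts over the exons of each gene. The 250 bases before the transcript start that RefSeq gives for each gene (GRCh38.p14) were searched on both strands for GGAATG, the core of the TEAD binding motif, and its complement CATTCC. The motif was found in 3 of the 9 members with a promoter in the table, and in 11.9% of all 35116 promoters. The promoters of these 3 genes, 2 classical YAP targets and *YAP1* itself, are shown because they hold the motif, 5′ to 3′ with each match in capitals:
*CCN2* (chr6:131951373-131951622, minus strand): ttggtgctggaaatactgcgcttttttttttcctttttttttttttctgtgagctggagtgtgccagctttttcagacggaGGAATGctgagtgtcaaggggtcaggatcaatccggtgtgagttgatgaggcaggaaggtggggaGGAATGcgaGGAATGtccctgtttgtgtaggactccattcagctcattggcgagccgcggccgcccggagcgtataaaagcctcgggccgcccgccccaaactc
*ANKRD1* (chr10:90921088-90921337, minus strand): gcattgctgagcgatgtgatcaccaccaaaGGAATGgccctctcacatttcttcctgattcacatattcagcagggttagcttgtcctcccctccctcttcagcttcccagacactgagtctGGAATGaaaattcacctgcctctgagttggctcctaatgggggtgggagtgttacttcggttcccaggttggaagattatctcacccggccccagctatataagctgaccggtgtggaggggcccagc
*YAP1* (chr11:102110197-102110446, plus strand): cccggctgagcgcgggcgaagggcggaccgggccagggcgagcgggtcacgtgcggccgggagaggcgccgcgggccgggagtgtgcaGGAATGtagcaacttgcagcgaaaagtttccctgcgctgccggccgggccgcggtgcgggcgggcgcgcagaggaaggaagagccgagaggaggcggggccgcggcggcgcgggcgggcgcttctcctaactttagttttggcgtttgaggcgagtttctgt

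The *CCN2* promoter held 3 matches, starting 169, 104 and 95 bases before the start of the gene, *ANKRD1* held 2, at 220 and 128 bases, and *YAP1* held 1, at 162 bases. The windows of *NF2*, *LATS1*, *LATS2*, *WWTR1*, *AMOTL2* and *AJUBA* held none. By the gene extents given above, which come from GENCODE, the windows of *LATS1* and *WWTR1* lie inside the gene and those of *NF2* and *AMOTL2* run partly into it, so they do not all cover sequence upstream of the outermost start. The 3 windows printed end at the base before the gene. A match is a run of letters and does not show binding.

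The libraries held 9854294 to 22101059 counts in the first table and 27285889 to 59974740 in the deep table. Values below are TMM-normalised cpm, counts scaled to the effective size of each library. All 12 knockdown libraries held less *THUMPD3* than any of their controls. Its cpm was 61.8, 59.6 and 62.5 in sh1Control and 30.9, 30.5 and 32.9 in shD3#1. It was 66.0, 65.0 and 58.6 in sh4Control and 20.2, 20.1 and 19.2 in shD3#4, and 65.7 and 68.5 in siControl against 11.6, 12.4 and 10.5 in siTHUMPD3. The deep libraries held 54.0, 53.0 and 55.9 in controls and 24.9, 27.5 and 28.3 in the knockdown. The remaining level was 51.3%, 31.4%, 17.1% and 49.6% of control with shD3 #1, shD3 #4, siD3 #3 and deep shD3 #1. The epithelial markers *KRT8*, *KRT18*, *KRT19*, *EPCAM* and *CDH1* summed to 2367 to 5699 cpm in all libraries, and the alveolar markers *NKX2-1*, *SFTPA1*, *SFTPB*, *SFTPC* and *NAPSA* to at most 2.77 cpm. Markers of blood and endothelium reached at most 7.21 and 1.55 cpm in sum. The fibroblast markers reached at most 12.1 cpm in the first table, with knockdown libraries above their controls in each comparison, and 26.9 to 29.4 cpm in deep shD3#1 against 7.75 to 8.49 cpm in its controls, with *DCN* at 0 in both deep groups. Their part in the results below was not tested. Replicate 3 of siTHUMPD3 stood apart from the other two, with a chi-square per degree of freedom over genes of 30.4 and 34.6 against 1.82 to 16.4 for replicate pairs of the other groups, and its *KRT18* level was 963 cpm against 2151 and 2147 cpm in the others.

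**Figure D1:**
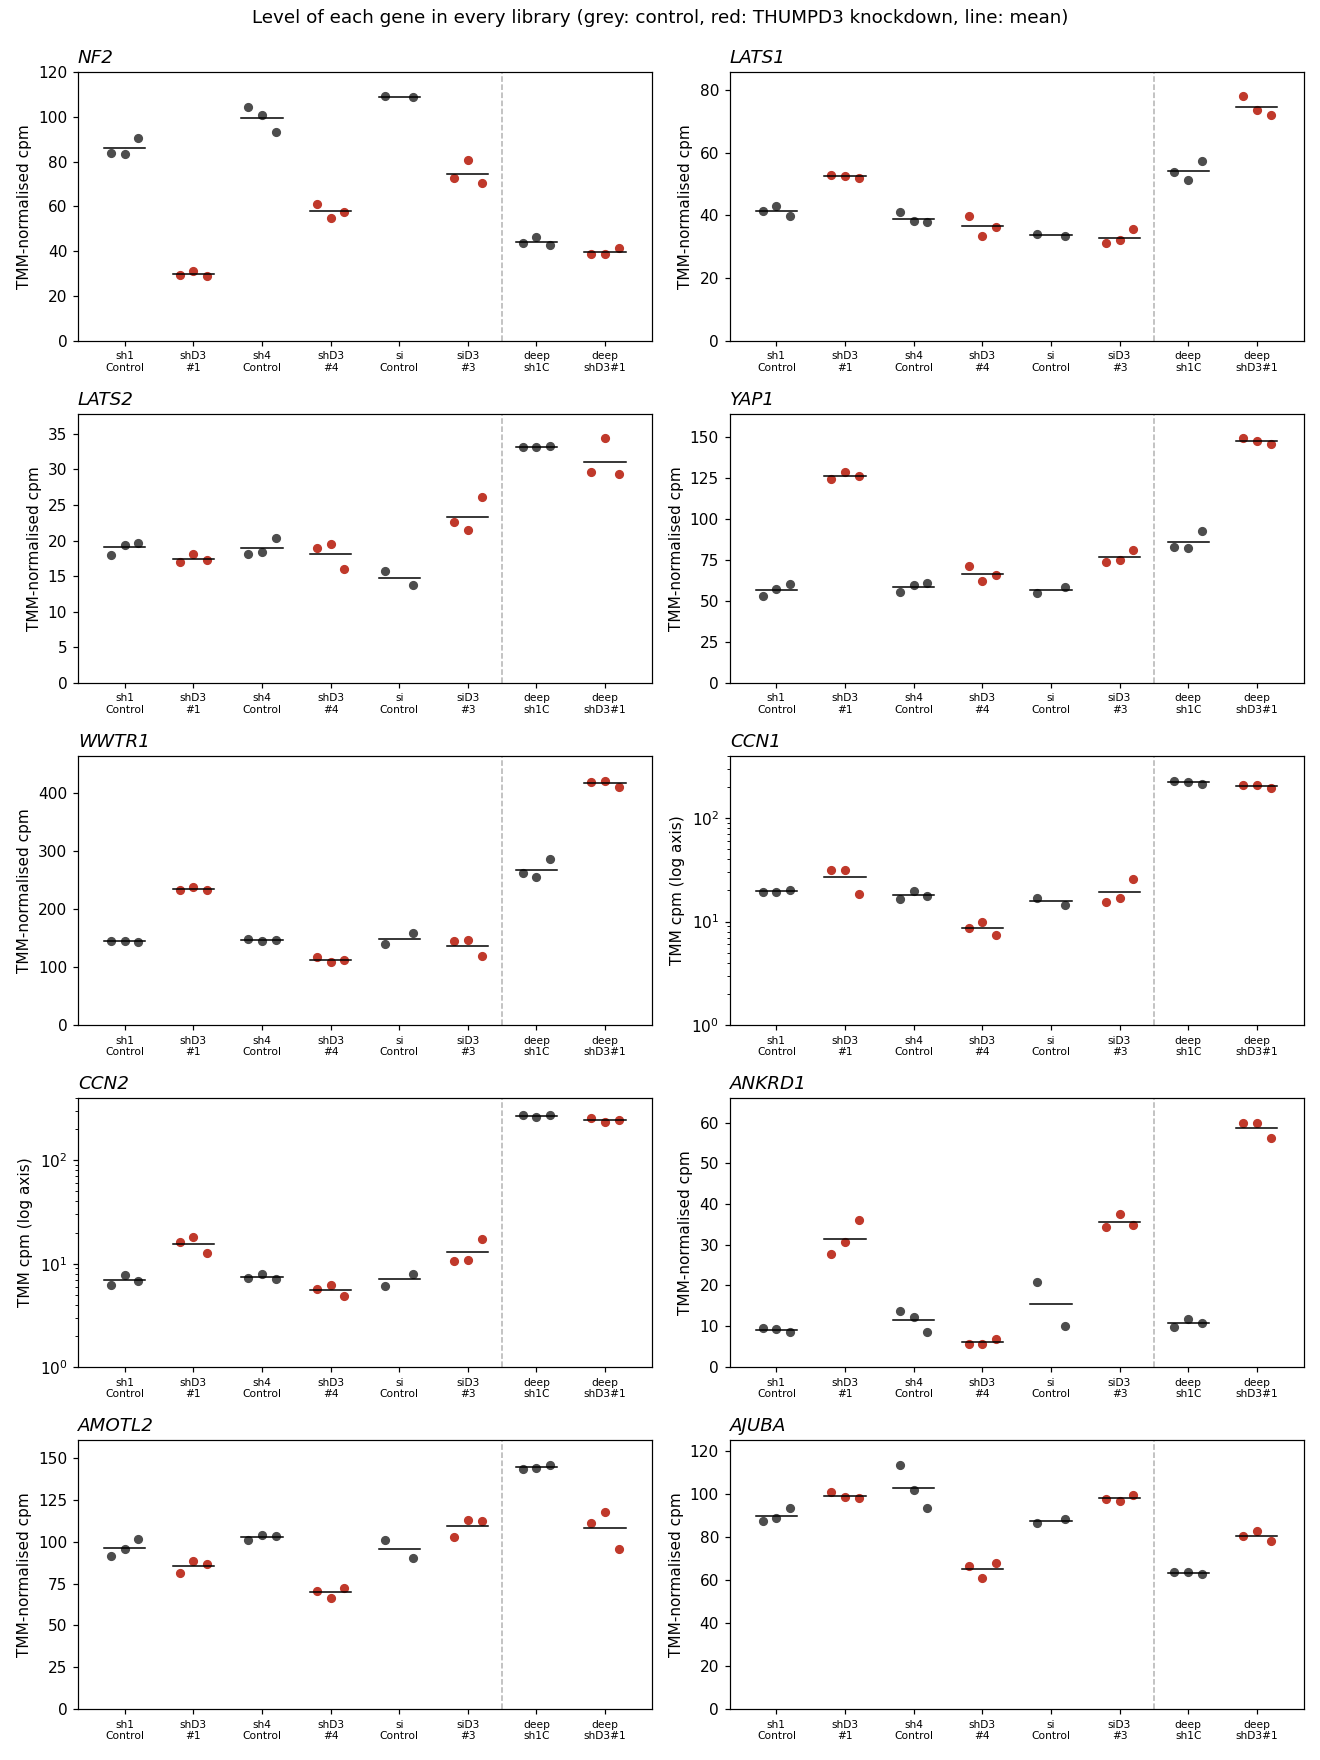
Level of the 10 genes in each of the 23 libraries, in TMM-normalised cpm (linear axes from 0, except log axes for *CCN1* and *CCN2*); grey points are control libraries, red points THUMPD3 knockdown libraries, short lines group means, and the dashed line separates the deep set, which was normalised on its own. *NF2* is lowest in shD3#1 at 28.8 to 30.9 cpm, and *CCN1* and *CCN2* in the deep set lie far above their levels in the first table.

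*NF2* encodes merlin, the upstream activator of the kinases. In sh1Control its level was 83.9, 83.6 and 90.7 cpm, and in shD3#1 it was 29.2, 30.9 and 28.8 cpm. In sh4Control it was 104, 101 and 93.1 cpm, against 61.2, 55.0 and 57.6 cpm in shD3#4. Both shRNA groups therefore lay below their controls without overlap, with log2 fold changes of -1.53 (SE 0.07) and -0.78 (SE 0.07), or 34.5% and 58.3% of control. In siControl *NF2* was 109 cpm in both libraries, and in siTHUMPD3 it was 72.7, 80.6 and 70.7 cpm. The siRNA libraries were thus also below both of their controls, at 68.5% of control and a log2 fold change of -0.55 (SE 0.09). This goes against the description by which the list was chosen, since the siRNA value lies under the fold change threshold of 1.5 but is not at control level. The nearest values on either side of that threshold were those of siD3 #3 (-0.55), just outside it, and shD3 #4 (-0.78), inside it. The loss was smallest with siD3 #3 (-0.55), larger with shD3 #4 (-0.78) and largest with shD3 #1 (-1.53). Differences between knockdowns in *NF2* bear on how the list was chosen and were not tested. In bulk RNA, fewer cells that express a gene and less of its RNA per cell cannot be told apart.

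The deep libraries gave another picture for *NF2*. Its level was 43.6, 46.2 and 42.9 cpm in deep sh1Control and 38.7, 38.9 and 41.4 cpm in deep shD3#1. The groups did not overlap, but the log2 fold change was only -0.16 (SE 0.05), against -1.53 with the same shRNA in the first table. The level in deep controls was 0.514 times that of the first sh1Control libraries, although the deep and first tables were counted on differently named gene sets and normalised separately. *NF2* in deep shD3#1 was at 89.7% of control, while *THUMPD3* in the same libraries was at 49.6%.

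The *NF2* values chose the list, so their order beside that of *THUMPD3* loss is only described, and a link was not tested. *THUMPD3* was lowest relative to control with siD3 #3 (17.1%), where *NF2* was least reduced of the first comparisons, and highest with shD3 #1 (51.3%), where *NF2* was most reduced. The 3 relatives of *NF2* that encode the cortical linkers ezrin, radixin and moesin did not pass the thresholds in any of the 4 comparisons. *EZR* had log2 fold changes of -0.12, -0.46, -0.35 and 0.42 with shD3 #1, shD3 #4, siD3 #3 and deep shD3 #1, *RDX* of -0.13, -0.09, -0.33 and -0.13, and *MSN* of 0.28, -0.05, 0.40 and 0.27.

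Of the 6 genes nearest to *NF2* on chromosome 22 among those tested in the first comparisons, none was called lower. Over all genes tested, 14.6%, 4.49%, 9.42% and 14.1% were called lower with shD3 #1, shD3 #4, siD3 #3 and deep shD3 #1. Those called higher were 14.5% with shD3 #1 and 15.0% in the deep set. The nearest genes tested were *AP1B1*, *THOC5* and *NIPSNAP1* on one side and *ZMAT5*, *UQCR10* and *ASCC2* on the other, and their log2 fold changes were -0.27 to 0.17 with shD3 #4 and -0.04 to 0.20 with siD3 #3. With shD3 #1, *AP1B1*, *NIPSNAP1* and *UQCR10* rose by 0.60, 0.61 and 0.69 on the log2 scale (edgeR, adjusted p = 1.09e-06, 1.57e-05 and 2.49e-04). Of the 6, *AP1B1* alone rose in the deep set, by 0.60 (adjusted p = 3.51e-08), and *UQCR10* was at -0.58 (adjusted p = 0.00595), just under the fold threshold.

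The patterns most like that of *NF2* over the 17 first libraries, by Pearson correlation of log2 cpm across 11455 genes, were those of *WNT3* (r = 0.985), *COMMD10* (0.982), *RPS6KA4* (0.981), *EIF2S3* (0.977) and *EXOSC5* (0.974). The points are libraries of 6 groups, so r describes mainly the group means. As the genes were picked on these libraries, their fold changes in the first comparisons follow from the choice and are only described. *COMMD10* had log2 fold changes of -1.09, -0.62, -0.45 and -0.75 with shD3 #1, shD3 #4, siD3 #3 and deep shD3 #1. *EXOSC5*, a subunit of the RNA exosome, had -0.94, -0.52, -0.49 and -1.47. In deep shD3#1, where *NF2* was at -0.16, *RPS6KA4* had -0.59 and *EIF2S3*, a subunit of initiation factor eIF2, had -0.58.

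Levels per length in control cells set the members in order. In sh1Control, *WWTR1* was highest at 17.3 ± 0.04 cpm per kb (SD, n = 3), followed by *AJUBA* at 15.3 ± 0.55, *AMOTL2* at 14.8 ± 0.81, *NF2* at 11.6 ± 0.55 and *YAP1* at 9.00 ± 0.60. The next were *CCN1* at 5.33 ± 0.13, *ANKRD1* at 5.07 ± 0.30, *LATS1* at 4.86 ± 0.17, *LATS2* at 3.39 ± 0.16 and *CCN2* at 2.96 ± 0.32. *AJUBA* and *AMOTL2* overlapped in their ranges, as did *ANKRD1* with *CCN1* and *LATS1*, and *CCN2* with *LATS2*. In deep sh1Control the order was different, with *CCN2* highest at 116 ± 3.85 cpm per kb and *CCN1* next at 60.4 ± 1.73. The cpm of *CCN2* was 39.1 times and that of *CCN1* 11.3 times the first sh1Control value, whereas *ANKRD1* was 1.18 times and the other 7 members 0.514 to 1.86 times.

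**Figure D2:**
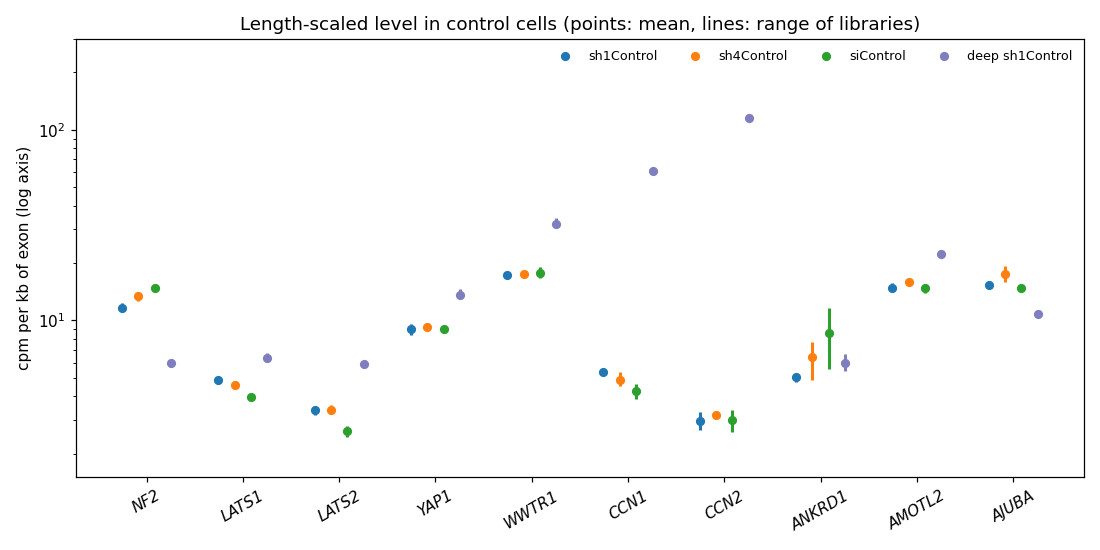
Level of the 10 genes in the control libraries, in cpm per kb of exon on a log axis; points are group means and vertical lines span the lowest to the highest library. Of the first controls, *ANKRD1* in siControl spans the widest range, 5.57 to 11.7, and the deep sh1Control means lie at 60.4 for *CCN1* and 116 for *CCN2*.

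*LATS1* and *LATS2* encode the kinases that phosphorylate YAP and TAZ. *LATS1* was 41.2, 42.8 and 39.8 cpm in sh1Control and 52.8, 52.5 and 51.7 cpm in shD3#1, so the groups did not overlap, but its log2 fold change of 0.34 (SE 0.06, adjusted p = 2.72e-04) was under the threshold. It was 0.46 in deep shD3#1 (SE 0.05, adjusted p = 2.96e-06), with knockdown at 77.9, 73.5 and 72.1 cpm and controls at 53.8, 51.4 and 57.3 cpm. With shD3 #4 and siD3 #3 the *LATS1* groups overlapped, at -0.09 (SE 0.07) and -0.03 (SE 0.10).

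*LATS2* was called with the siRNA and in no other comparison. Its level was 15.7 and 13.7 cpm in siControl and 22.6, 21.5 and 26.1 cpm in siTHUMPD3, a log2 fold change of 0.66 (SE 0.13, adjusted p = 0.00753). This fell to 0.57 (SE 0.11, adjusted p = 0.00315), under the fold threshold, without replicate 3 of siTHUMPD3, and to 0.56 (adjusted p = 0.0691) without replicate 2 of siControl. With shD3 #1, shD3 #4 and deep shD3 #1 the *LATS2* groups overlapped, at -0.12, -0.06 and -0.10, and the siRNA effect exceeded the mean shRNA effect by 0.77 (SE 0.13, adjusted p = 1.16e-04).

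*YAP1* encodes YAP, the transcriptional co-activator held in check by the kinases. In sh1Control it was 52.9, 57.1 and 60.4 cpm, and in shD3#1 124, 129 and 126 cpm. Each knockdown library held more than any control, with a log2 fold change of 1.15 (SE 0.07, adjusted p = 7.25e-10), or 2.22-fold. The deep libraries gave 82.7, 82.2 and 92.5 cpm in controls and 149, 148 and 146 cpm in shD3#1, a log2 fold change of 0.78 (SE 0.05, adjusted p = 5.05e-09). With siD3 #3 it was 55.0 and 58.7 cpm in controls and 73.8, 74.8 and 81.1 cpm in the knockdown, without overlap but with a log2 fold change of 0.43 (SE 0.09, adjusted p = 0.00866) under the threshold. With shD3 #4 it was 55.4, 59.6 and 60.7 cpm against 71.3, 62.0 and 66.0 cpm, a log2 fold change of 0.18 (SE 0.07, adjusted p = 0.0330), also under it.

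*WWTR1*, encoding TAZ, rose with the same shRNA. It was 145, 144 and 144 cpm in sh1Control and 233, 239 and 232 cpm in shD3#1 (log2 fold change 0.70, SE 0.06, adjusted p = 2.76e-08), and 262, 255 and 287 cpm against 420, 422 and 412 cpm in the deep set (0.64, SE 0.05, adjusted p = 2.82e-08). With shD3 #4 it was 149, 145 and 147 cpm in controls and 117, 109 and 112 cpm in the knockdown, every knockdown library lower, at -0.39 (SE 0.06, adjusted p = 1.53e-05). The siRNA groups overlapped, at 139 and 159 cpm against 144, 147 and 118 cpm (-0.13, SE 0.12). *WWTR1* was therefore called with shD3 #1 in both sets and with neither of the other knockdowns.

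*CCN2* encodes connective tissue growth factor, a secreted matrix-associated protein and the most used reporter gene of YAP. In the first table it was 6.23, 7.71 and 6.86 cpm in sh1Control and 16.2, 17.9 and 12.6 cpm in shD3#1, a log2 fold change of 1.20 (SE 0.13, adjusted p = 1.10e-06). With siD3 #3 it was 6.10 and 7.97 cpm in controls and 10.7, 11.0 and 17.3 cpm in the knockdown, the highest value being replicate 3. The log2 fold change was 0.89 (SE 0.25, adjusted p = 0.0294), which became 0.62 (adjusted p = 0.0123) without that replicate and lost significance without either siControl library (adjusted p = 0.189 without replicate 1 and 0.0731 without replicate 2). With shD3 #4 it was 7.29, 7.87 and 7.10 cpm against 5.67, 6.25 and 4.82 cpm, every knockdown library lower, at -0.41 (SE 0.12, adjusted p = 0.00936) and under the fold threshold. With the far higher base level of the deep set, it was 274, 261 and 278 cpm in controls and 258, 238 and 246 cpm in shD3#1, or -0.13 (SE 0.04, adjusted p = 0.0179).

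*CCN1*, which encodes the related matricellular protein CYR61, was 19.5, 19.4 and 20.3 cpm in sh1Control. In shD3#1 it was 31.7 and 31.3 cpm in replicates 1 and 2 and 18.4 cpm in replicate 3, the library of lowest depth, which lay below every control. Its log2 fold change was 0.49 (SE 0.14, adjusted p = 0.00609) and became 0.67 (SE 0.08, adjusted p = 2.13e-13), past the threshold, without that library. With shD3 #4 *CCN1* was 16.7, 19.7 and 17.8 cpm in controls and 8.75, 9.86 and 7.34 cpm in the knockdown. This was a clear separation, with a log2 fold change of -1.06 (SE 0.10, adjusted p = 7.18e-09). With siD3 #3 the groups overlapped (17 and 14.3 cpm against 15.3, 16.9 and 25.7 cpm), the highest library again being replicate 3. Deep libraries held *CCN1* at 229, 225 and 217 cpm in controls and 209, 210 and 198 cpm in shD3#1, a log2 fold change of -0.12 (SE 0.04, adjusted p = 0.0237).

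*ANKRD1*, which encodes a cardiac ankyrin repeat protein that acts in the nucleus and sarcomere, showed the widest range of changes. It was 9.50, 9.28 and 8.47 cpm in sh1Control and 27.8, 30.6 and 36.0 cpm in shD3#1, a log2 fold change of 1.78 (SE 0.10, adjusted p = 7.87e-10), or 3.47-fold. Deep libraries gave 9.69, 11.9 and 10.7 cpm in controls and 59.8, 60.0 and 56.1 cpm in shD3#1, a log2 fold change of 2.45 (SE 0.07, adjusted p = 1.33e-12), or 5.45-fold. It was called lower with shD3 #4, where controls held 13.7, 12.3 and 8.68 cpm and knockdown libraries 5.67, 5.73 and 6.83 cpm, a log2 fold change of -0.93 (SE 0.14, adjusted p = 5.44e-06). With siD3 #3 it was 20.9 and 9.98 cpm in the controls, which differed by more than either shRNA control group, and 34.3, 37.6 and 34.8 cpm in the knockdown (1.19, SE 0.26, adjusted p = 0.0106). Without replicate 2 of siControl that value became 0.76 (adjusted p = 0.0143). Of the first 3 comparisons, *ANKRD1* was therefore called higher in 2 and lower in 1.

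*AMOTL2* encodes an angiomotin-family protein that binds YAP at cell junctions. It was 101, 104 and 103 cpm in sh4Control and 70.5, 66.5 and 72.4 cpm in shD3#4, a log2 fold change of -0.56 (SE 0.06, adjusted p = 8.49e-08), just under the fold threshold. With shD3 #1, siD3 #3 and deep shD3 #1 it was at -0.17, 0.19 and -0.42. *AJUBA*, a LIM-domain protein that binds and inhibits the LATS kinases, fell with shD3 #4. It was 114, 102 and 93.6 cpm in controls and 66.4, 60.8 and 68.0 cpm in the knockdown (-0.66, SE 0.07, adjusted p = 5.15e-08), with no overlap. In the others it was at 0.14, 0.16 and 0.34 with shD3 #1, siD3 #3 and deep shD3 #1, none past the threshold.

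**Figure D3:**
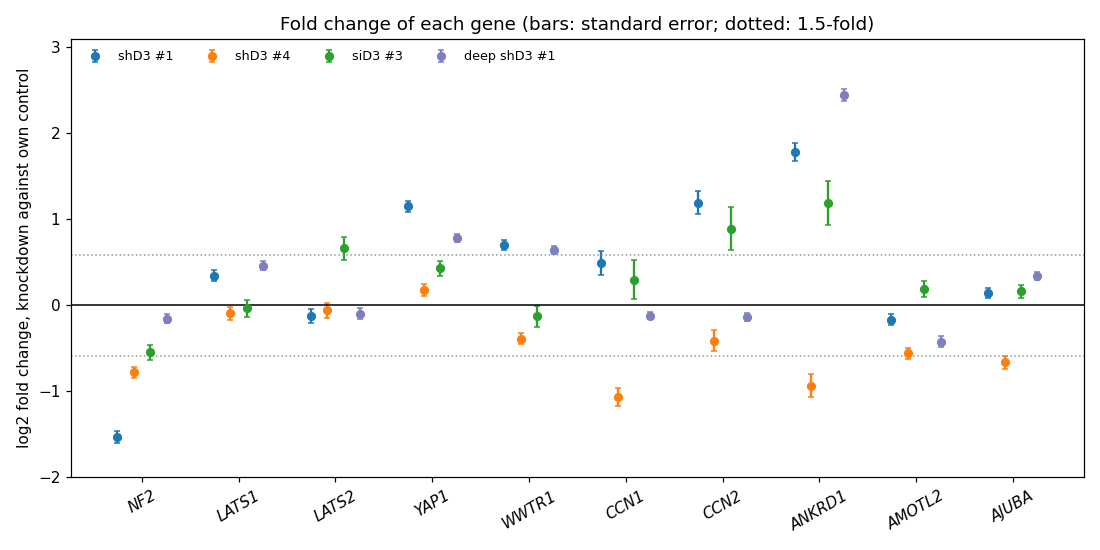
Log2 fold change of each gene in each comparison, knockdown against its own control, with bars of 1 standard error; dotted lines mark a fold change of 1.5 in either direction. *ANKRD1* ranges from -0.93 with shD3 #4 to 2.45 in deep shD3#1, and *NF2* is below 0 in all 4 comparisons.

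Over the 9 members other than *NF2*, 4 were called higher with shD3 #1 (edgeR, adjusted p under 0.05 with at least a 1.5-fold change), against 14.5% of the 16456 genes tested, and 0 lower, against 14.6%. At an unadjusted p under 0.05, 7 were higher and 1 lower, and DESeq2 called the same numbers, 4 and 0. With shD3 #4, 0 rose, against 8.00% of genes, and 3 fell, against 4.49%, where 1 and 6 passed an unadjusted p under 0.05 and DESeq2 called 0 and 3. With siD3 #3, 3 rose, against 12.5% of genes, and 0 fell, against 9.42%, where 4 and 0 passed an unadjusted p under 0.05 and DESeq2 called 3 and 0. In the deep set 3 rose, against 15.0%, and 0 fell, against 14.1%, where 5 and 3 passed an unadjusted p under 0.05 and DESeq2 called 3 and 0. Members were known to vary in these contrasts when they were listed, so these counts are read as a description. No share of all genes is given beside the counts at an unadjusted p under 0.05. Their median log2 fold change was 0.49, -0.41, 0.30 and 0.34 in the 4 comparisons, against -0.01, 0.01, 0.03 and -0.02 over all genes tested.

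Of the same 9 members, 6 had every shD3#1 library above every control (30.8% of all genes tested did) and 1 below (31.2%). With shD3 #4, 1 was above (24.7%) and 6 below (24.7%). With siD3 #3, 6 were above (30.5%) and none below (29.5%), and in the deep set 5 were above (33.2%) and 3 below (34.0%).

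The effect of shD3 #4 differed from that of shD3 #1, tested in 1 model of the 17 first libraries, for 6 of the 9 members, all lower with shD3 #4. In that model 12.1% of all 18672 genes were called lower with shD3 #4 and 13.8% higher. The difference was largest for *ANKRD1*, at -2.71 (SE 0.28, adjusted p = 1.70e-07). It was -1.60 for *CCN2* (SE 0.25, adjusted p = 3.67e-05), -1.55 for *CCN1* (SE 0.26, adjusted p = 6.82e-05), -1.09 for *WWTR1* (SE 0.11, adjusted p = 1.02e-07), -0.97 for *YAP1* (SE 0.10, adjusted p = 2.20e-07) and -0.80 for *AJUBA* (SE 0.10, adjusted p = 2.32e-06). *LATS1* and *AMOTL2* differed by -0.43 and -0.39, under the threshold, and *LATS2* by 0.07 (SE 0.14). The effects on *THUMPD3* itself differed by -0.70 (SE 0.10), lower with shD3 #4.

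The effect of siD3 #3 was called different from the mean shRNA effect for *LATS2* and *ANKRD1*, against 9.43% of all genes called higher and 7.12% lower. For *ANKRD1* the difference was 0.77 (SE 0.24, edgeR, adjusted p = 0.0195), and it became 0.34, under the fold threshold, without replicate 2 of siControl. The shRNA mean for *ANKRD1* joins effects of opposite sign, 1.78 with shD3 #1 and -0.93 with shD3 #4. The siRNA value of 1.19 lay between them. The other 7 members were not called, but some passed 1 of the thresholds. *AMOTL2* (0.57, edgeR, adjusted p = 6.48e-05), *AJUBA* (0.44, adjusted p = 0.00128) and *WWTR1* (-0.27, adjusted p = 0.0459) passed the adjusted p alone. *CCN1* (0.60, adjusted p = 0.0670) passed the fold threshold alone. *CCN2*, *LATS1* and *YAP1* passed neither, at 0.52, -0.14 and -0.22.

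The other genes of the pathway were taken as a list of 28 from general knowledge. With shD3 #1, 2 of the 27 tested rose and 2 fell, beside 14.5% and 14.6% of all genes. With shD3 #4, 1 of 28 rose and 1 fell, beside 8.00% and 4.49%. With siD3 #3, 3 rose and 1 fell, beside 12.5% and 9.42%, and in the deep set 3 rose and 0 fell, beside 15.0% and 14.1%. Their medians were 0.01, -0.06, 0.16 and 0.08. At an unadjusted p under 0.05, 10 were higher and 9 lower with shD3 #1, and 5 and 8 with shD3 #4. These counts were 10 and 5 with siD3 #3, and 11 and 7 in the deep set, where DESeq2 called 3 and 0. No share of all genes is given at the unadjusted threshold, so these counts are not read as a result about the list.

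Among the kinase core, *STK3* (MST2, which phosphorylates LATS) fell with shD3 #1 from 27.9 ± 1.09 to 14.3 ± 0.86 cpm (SD, n = 3), a log2 fold change of -0.96 (SE 0.08, adjusted p = 5.93e-08). *MOB1A*, the LATS co-activator, fell by 0.68 on the log2 scale (SE 0.07, adjusted p = 7.40e-07). Neither was called in another comparison. *MOB1A* was still below every control with shD3 #4, siD3 #3 and deep shD3 #1, at -0.29, -0.47 and -0.19. *STK3* was also below every control in the deep set, at -0.34. *STK3* overlapped its controls with shD3 #4 and siD3 #3, at 0.08 and -0.09. In the same core, *STK4* was above every control with shD3 #1 and in the deep set, at 0.32 and 0.25. It was at -0.09 with shD3 #4 and -0.07 with siD3 #3. *SAV1* and *MOB1B* were at -0.12 and -0.21 with shD3 #1. *STK4*, *SAV1* and *MOB1B* were called in no comparison. Among the upstream regulators *FRMD6*, a FERM-domain protein, was 24.5 ± 0.94 cpm in sh1Control and 63.3 ± 5.10 in shD3#1 (log2 fold change 1.37, adjusted p = 4.82e-10) and 28.4 ± 1.24 cpm in sh4Control and 16.8 ± 1.17 in shD3#4 (-0.76, adjusted p = 2.31e-08). It was thus called in opposite directions by the 2 shRNAs, a difference of -2.12 (SE 0.22, adjusted p = 2.07e-07). It was 1.12 in the deep set (adjusted p = 7.00e-09) and 0.99 with siD3 #3 (adjusted p = 0.0213), the last being lost without either siControl library (adjusted p = 0.142 and 0.0845).

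The scaffold *AMOT* was called higher with shD3 #4, siD3 #3 and deep shD3 #1, at low levels. Its mean rose from 0.46 to 1.11 cpm with shD3 #4 (log2 fold change 1.28, adjusted p = 0.00232) and from 0.54 to 1.89 cpm in the deep set (1.81, adjusted p = 1.15e-05). The siControl libraries held only 1 and 3 counts of *AMOT*, against 27, 21 and 12 in siTHUMPD3, so no fold is given there, and the call was lost without siControl replicate 1 (adjusted p = 0.111). Of the TEAD factors, *TEAD4* was lower in all 4 comparisons, at -0.51, -0.35, -0.72 and -0.50, and was called only with siD3 #3 (adjusted p = 0.00971), a call lost without replicate 2 of siControl (adjusted p = 0.0699). *TEAD1* had 0.07, -0.21, -0.03 and 0.07, *TEAD2* 0.17, 0.13, -0.51 and 0.12, and *TEAD3* 0.40, -0.08, 0.60 and 0.14, none called. *VGLL4*, which competes with YAP for the TEADs, rose by 0.72 with shD3 #1 and by 0.80 with siD3 #3 (edgeR, adjusted p = 4.82e-07 and 3.83e-04). It was also above every control with shD3 #4 and in the deep set, at 0.36 and 0.49, under the fold threshold. *CRB3*, a polarity protein, rose by 0.70 in the deep set (adjusted p = 1.26e-04).

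Of 17 further genes of a widely used YAP and TAZ target signature, 6 rose and 1 fell with shD3 #1 (14.5% and 14.6% of all genes did), and 0 rose and 1 fell with shD3 #4 (8.00% and 4.49%). With siD3 #3, 4 rose and 2 fell (12.5% and 9.42%), and 6 rose and 1 fell in the deep set (15.0% and 14.1%). For shD3 #4, 5 were higher and 7 lower at an unadjusted p under 0.05, a threshold for which no share of all genes is given. DESeq2 called 0 and 2. The 6 genes that rose with shD3 #1 also rose in the deep set, which used the same shRNA. The overlap over all genes is not given, so this is not read as a result about the list. The medians of the 17 genes were 0.38, -0.05, 0.35 and 0.37 in the 4 comparisons.

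With shD3 #1 the largest rises were in *F3*, the coagulation initiator tissue factor, at 1.65 (SE 0.12, adjusted p = 8.31e-09), *AXL*, a receptor tyrosine kinase, at 1.49 (SE 0.06, adjusted p = 1.35e-11), and *NT5E*, the ectonucleotidase CD73, at 1.46 (SE 0.07, adjusted p = 6.18e-11). *IGFBP3*, which binds insulin-like growth factors, fell by 1.16 on the log2 scale (adjusted p = 1.55e-10). In deep shD3#1, with the same shRNA, *IGFBP3* was instead above its controls in every library, at 0.21 (adjusted p = 0.00366), and with shD3 #4 likewise, at 0.47 (adjusted p = 8.61e-06), both under the fold threshold. Deep shD3#1 libraries had *NT5E*, *F3* and *RBMS3* as the listed genes that rose most, at 1.97, 1.84 and 1.70, and *NUAK2* fell by 0.77. *AXL* was also the gene that fell with shD3 #4, from 224, 217 and 231 cpm to 88.8, 94.1 and 87.9 cpm, a log2 fold change of -1.31 (SE 0.06, adjusted p = 2.01e-14). The difference between the shRNAs for *AXL* was -2.80 (SE 0.15, adjusted p = 4.64e-11). In this test, 6 of the 17 target genes were called lower with shD3 #4 than with shD3 #1. The 2 called higher were *IGFBP3* (1.63) and *CCDC80* (0.96). Of the 28 pathway genes, 2 were called lower and 1, *STK3* (1.04), higher. Over all 18672 genes, 12.1% were called lower and 13.8% higher. *IGFBP3*, *CCDC80* and *STK3* were named here after their values were seen. With siD3 #3, *GADD45A*, a stress-induced growth arrest gene, rose by 2.30 (edgeR, adjusted p = 1.45e-04). *GADD45A* was also called higher with shD3 #1 and in the deep set, at 1.42 and 1.30, and was at 0.03 with shD3 #4. Also with siD3 #3, *MYOF* rose by 0.96 and *TGFB2* by 0.73, while *FOXF2* and *FJX1* were called lower at -0.94 and -0.65. The last 2 calls were lost without 1 siControl library (adjusted p = 0.0531 and 0.0707).

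**Figure D4:**
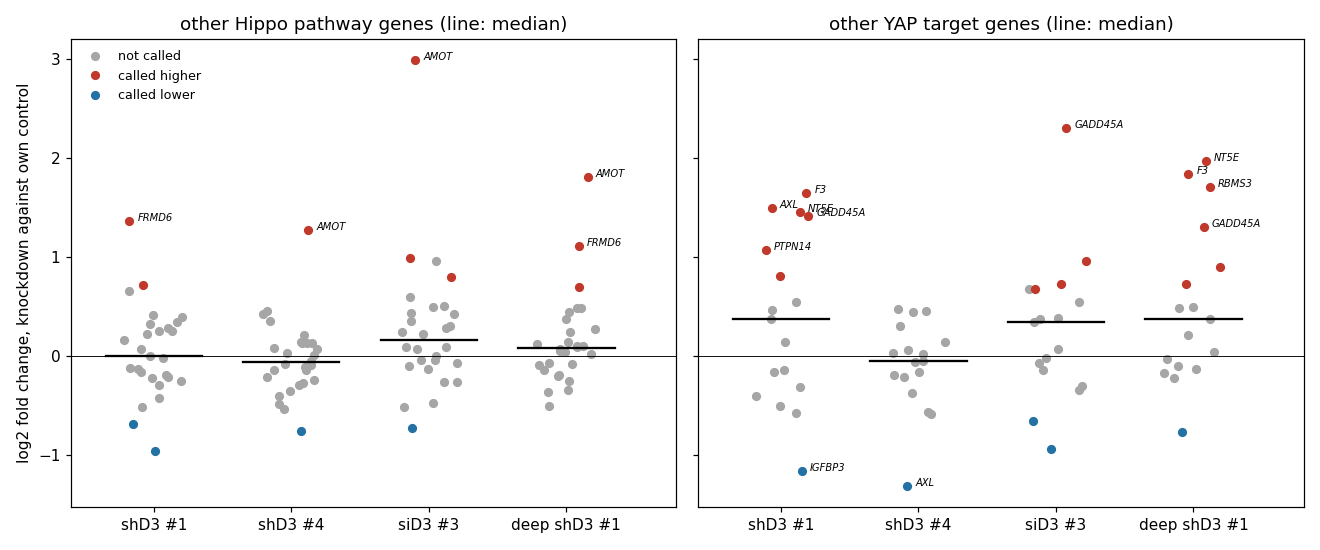
Log2 fold change of the other Hippo pathway genes (left) and of the other YAP target genes (right) in the 4 comparisons; each point is a gene, red where called higher, blue where called lower, grey otherwise, and the black line is the list median. The target genes have medians of 0.38, -0.05, 0.35 and 0.37, *AXL* is called higher with shD3 #1 and lower with shD3 #4, and the *AMOT* point with siD3 #3 rests on 1 and 3 control counts.

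The 5 genes whose level followed *CCN2* most closely over the 17 first libraries were *ELK3* (r = 0.969), *FRMD6* (0.958), *GLIPR1* (0.955), *C3orf52* (0.952) and *RASSF10* (0.951). They were picked on these libraries, so their fold changes in the first 3 comparisons follow from the choice and are only described. *GLIPR1* had log2 fold changes of 1.80, -0.61, 1.62 and 1.38 with shD3 #1, shD3 #4, siD3 #3 and deep shD3 #1. *C3orf52* had 1.30, -0.32, 1.07 and 1.29, *RASSF10* 0.89, -0.58, 0.66 and 0.81, and *ELK3* 0.63, -0.17, 0.35 and 0.50. All 5 were above 0 in deep shD3#1, where *CCN2* was at -0.13.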

How the data were processed

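RNA-seq values were analysed for 23 A549 libraries. The deposited values are raw counts of reads per gene, which the authors made from rRNA-depleted, directional libraries by alignment to GRCh38.p14 with STAR 2.7.10a in its gene-counting mode, and the submitters' processing notes also list Trimmomatic 0.40. The first table names genes by Ensembl identifier and the deep table by symbol, so the tables were normalised and tested separately. Gene positions and exon lengths were taken from GENCODE 44, where 61757 of 61806 first-table identifiers matched, and promoters from RefSeq.

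Each knockdown was compared with its own control in edgeR 4.0.16 (R 4.3.3; TMM, filterByExpr, quasi-likelihood test, Benjamini-Hochberg adjustment over all genes tested). A gene was called where its adjusted p was under 0.05 and it changed at least 1.5-fold. Differences between knockdowns were tested in 1 model of the 17 first libraries. Correlations used log2 cpm with a prior count of 2, among genes with a mean of at least 2. Members and lists were chosen with earlier results of these data known. All members and *THUMPD3* were named in every comparison. From the lists, up to 3 called genes with the largest change in each direction were named, with the TEADs and *NF2* relatives. *STK4*, *SAV1* and *MOB1B* were added after their values were seen. The test was tested on simulated data. Alternatives were DESeq2 1.42.0, its size factors, other count filters, a replicate block, each library left out and 1 fit of 17 libraries.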

Additional observations from a re-analysis of the deposited data

Results flagged for a closer look

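Between the shRNAs, 6 members differed in effect by a test of the difference itself (shD3 #4 minus shD3 #1, log2 scale, edgeR), namely *YAP1* (-0.97), *WWTR1* (-1.09), *CCN1* (-1.55), *CCN2* (-1.60), *ANKRD1* (-2.71) and *AJUBA* (-0.80). The targeted gene *THUMPD3* was also lower with shD3 #4 (-0.70). In the same test 12.1% of all 18672 genes were called lower with shD3 #4 and 13.8% higher. From the lists, 8 genes were lower with shD3 #4 than with shD3 #1, namely *FRMD6* (-2.12), *WTIP* (-0.61), *AXL* (-2.80), *F3* (-1.70), *GADD45A* (-1.38), *MYOF* (-0.70), *NT5E* (-1.01) and *PTPN14* (-1.01), and 3 were higher, *IGFBP3* (1.63), *CCDC80* (0.96) and *STK3* (1.04). The *WTIP* difference fell under the fold threshold, at -0.53 to -0.58, without sh1Control replicate 1, shD3#1 replicate 3, sh4Control replicate 1 or 2, or shD3#4 replicate 1. Between the siRNA and the mean of the shRNAs, *LATS2* (0.77), *ANKRD1* (0.77) and *THUMPD3* (-1.21) were called different. Over all genes, 9.43% were called higher and 7.12% lower. For *ANKRD1* the mean joins opposite effects, 1.78 with shD3 #1 and -0.93 with shD3 #4, and siD3 #3 lay between them at 1.19. Its difference became 0.34, under the fold threshold, without replicate 2 of siControl.

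*CCN2* had every deep shD3#1 library below every control, at -0.13, and every first shD3#1 library above every control, at 1.20. That difference was not tested, since the tables were normalised separately.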

How the results depend on the processing

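Of the 10 members, the calls with shD3 #1, shD3 #4 and the deep set kept their direction and side of the threshold under DESeq2, its size factors, other count filters and the replicate block, and the exceptions on leaving out a library were *CCN1* with shD3 #1 (0.67 without shD3#1 replicate 3) and *AMOTL2* with shD3 #4 (-0.59 without shD3#4 replicate 3). The 6 differences of members between the shRNAs kept theirs under all alternatives run. Signs turned only near 0. With at least 10 counts in every library, *LATS1* and *TEAD1* with siD3 #3 were at 0.013 and 0.012. On leaving out 1 library, *LATS2* with shD3 #4 ranged from -0.11 to 0.024, *TEAD3* with shD3 #4 from -0.16 to 0.016 and *LATS1* with siD3 #3 from -0.10 to 0.017. The other YAP target genes called lower with shD3 #1 became 2 without a filter, with at least 10 counts and in 1 fit of 17 libraries. Those called lower with shD3 #4 became 2 with DESeq2, without a filter, with the replicate block and in 1 fit of 17 libraries. The other Hippo genes called higher with shD3 #4 became 0 with at least 10 counts, which removes *AMOT* from the test. On leaving out 1 library, the counts ranged from 1 to 2 for the other YAP target genes called lower with shD3 #1 and from 1 to 3 with shD3 #4. With siD3 #3 the members called higher ranged from 1 to 3, other Hippo genes called higher from 1 to 5 and lower from 0 to 2, and other YAP target genes called lower from 1 to 2. All genes called higher with siD3 #3 ranged from 1230 to 2315, the lowest without siControl replicate 2 and 1324 without siControl replicate 1. Members for which siD3 #3 exceeded the mean shRNA effect ranged from 1 without siControl replicate 2 to 5 without siTHUMPD3 replicate 1. Replicate numbers were not treated as pairs in the main fits. Same-numbered correlations ranged from -0.108 to 0.142, and no comparison had all of them above 0.1. With 2 siControl libraries the deviations mirror each other, so those values cannot show whether the siRNA libraries pair. With the replicate block, *LATS2* with siD3 #3 was at 0.58, under the fold threshold, *TEAD3* was called at 0.70, and the other Hippo genes called higher with siD3 #3 were 5. The cause of these changes was not tested. With 2 siControl libraries, the siRNA calls rest on the least replication.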
